A study of Mus musculus with 64 samples.

Results

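The 6 genes described here make, break down and bind retinoic acid: Aldh1a1, Aldh1a2 and Aldh1a3, Cyp26a1, and Crabp1 and Crabp2. They were taken by name, and every probe set annotated to them was used: 8 probe sets for 6 of the 12393 genes with a probe set of their own. Aldh1a3 had 3 probe sets and the other genes 1 each. All 6 genes were among the 9352 that passed the filter on low signals and were tested.

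Retinoic acid is a small lipid made from vitamin A, first by oxidation of retinol to retinaldehyde and then of retinaldehyde to the acid. The retinaldehyde dehydrogenases Aldh1a1, Aldh1a2 and Aldh1a3 carry out the last step, and the cytochrome P450 enzyme Cyp26a1 oxidises the acid to inactive products. In the cytoplasm it is held by the binding proteins Crabp1 and Crabp2, of which Crabp2 is known to pass it to receptors in the nucleus. Those receptors, pairs of a retinoic acid receptor and a retinoid X receptor, sit on short repeated DNA motifs and switch on target genes, Cyp26a1 among them. In the mouse embryo both too much and too little retinoic acid disturb the shaping of the inner ear.

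The tissues came from unmanipulated CBA/J mouse embryos, with no transgene, mutation or treatment in any group. Of the 64 arrays, 58 hold microdissected inner ear epithelium and 6 the tissue next to it, called surroundings below, with 2 arrays in each of 32 groups. The placode was taken at E9, the otic vesicle at E9.5 and E10, the cochlea at each stage from E10.5 to E15, the vestibular organ at E10.5, E11, E11.5 and E12, and the saccule and the utricle with its 3 ampullae from E12.5 to E15. Surrounding tissue formed 3 groups, at E9, pooled over E9.5 to E10.5, and pooled over E11 to E15. Each array held RNA from a pool of tissues, 6 to 17 where the labels give the number, and the 2 pools of a group came from different litters. Before dissection the tissue lay in the enzyme dispase, 8 to 10 minutes up to E10.5 and 20 to 25 minutes from E11 on.

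Promoter windows of 250 bases before to 50 bases after the start site (RefSeq, GRCm38.p6) were found for 4 of the 6 genes, Aldh1a1, Aldh1a2, Cyp26a1 and Crabp1, with 2 windows for Aldh1a1. They were searched on both strands for direct repeats of the receptor motif, written AGGTCA or AGTTCA or GGGTCA or else GGTTCA, with 1, 2 or 5 bases between the copies. Cyp26a1 and Aldh1a2 are shown because these genes of a degrading and a making enzyme were called in opposite directions between organs. Capitals mark the match. The windows lie at chr19:37697558-37697857 (plus strand) for Cyp26a1 and chr9:71215539-71215838 (plus strand) for Aldh1a2.
Cyp26a1: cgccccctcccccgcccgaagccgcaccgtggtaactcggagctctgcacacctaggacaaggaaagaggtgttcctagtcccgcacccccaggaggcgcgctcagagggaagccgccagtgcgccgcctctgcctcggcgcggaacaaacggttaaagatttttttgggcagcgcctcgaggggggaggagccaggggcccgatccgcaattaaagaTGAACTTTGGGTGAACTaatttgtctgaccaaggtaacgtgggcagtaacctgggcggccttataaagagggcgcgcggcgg
Aldh1a2: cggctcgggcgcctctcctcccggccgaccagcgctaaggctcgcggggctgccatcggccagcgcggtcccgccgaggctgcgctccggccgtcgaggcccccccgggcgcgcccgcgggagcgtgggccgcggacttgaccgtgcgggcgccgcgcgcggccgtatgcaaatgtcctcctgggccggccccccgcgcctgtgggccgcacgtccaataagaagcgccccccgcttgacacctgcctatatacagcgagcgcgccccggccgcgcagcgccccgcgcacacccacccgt
The Cyp26a1 window holds 1 match, with 5 bases between the copies, on the opposite strand at positions -32 to -16 from the start site. That spacing was found in 32 of 32851 promoter windows (0.0974%), the spacing of 1 in 73 (0.222%), the spacing of 2 in 88 (0.268%) and any of them in 193 (0.588%). The windows of Aldh1a1, Aldh1a2 and Crabp1 hold no match, which says only that these letters are not in these windows.

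Values are probe set signals after quantile normalization, on a scale with a floor of 10, a median of 87.5 and a maximum of 12767 on every array. Signals of different probe sets are not on a common scale, so a gene was compared only with itself across tissues and stages. Differences were fitted on log2(signal + 16), which understates changes of low signals, and are given as the first-named group minus the second with their standard error (SE). Numbers in parentheses after a comparison are such log2 differences unless a fold is written. The words higher, lower, rose and fell are kept for genes that were called, with an adjusted p from limma under 0.05 over all 9352 genes and a log2 difference of 1 or more in size. The p-values rest on the spread between the pools of a group. In whole tissue, fewer cells that make a transcript and less transcript per cell cannot be told apart.

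The labelled tissues were checked against marker genes. Summed over 9 measured otic epithelium genes, the signal was 3299 or more on all 58 inner ear arrays and 489 to 758 on the 6 arrays of surrounding tissue. The epithelial genes Epcam and Esrp1 stood at or near the floor in the surroundings from E9.5 on, at 10 and at 10 to 16.8. Other genes of the list did not: in the surroundings of E11 to E15 Cdh1 had 114.9 and 90.5 and Pax8 133.7 and 141.6. The cochlea of E15 had 992.7 and 977.4 for Cdh1 and 132 and 121.3 for Pax8, so Pax8 did not separate the tissues there. On inner ear arrays the summed mesenchyme signal over 9 genes was 768 to 6266 and the summed hindbrain signal over 7 genes 267 to 3190, against 3758 to 15595 and 6205 to 13931 in the surroundings. The saccule had more hindbrain signal (1626 to 3190) than the utricle with ampullae (461 to 1212), with Fabp7 at 767 to 2348 in the saccule and 66.7 to 557 in the utricle. Of the hindbrain genes 3 of 7 and of the meninges genes 2 of 4 were called higher in the saccule than in the utricle with ampullae, and 3 of 7 and 3 of 4 were called lower in the cochlea than in the saccule; their part in the results below was not tested.

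**Figure D1:**
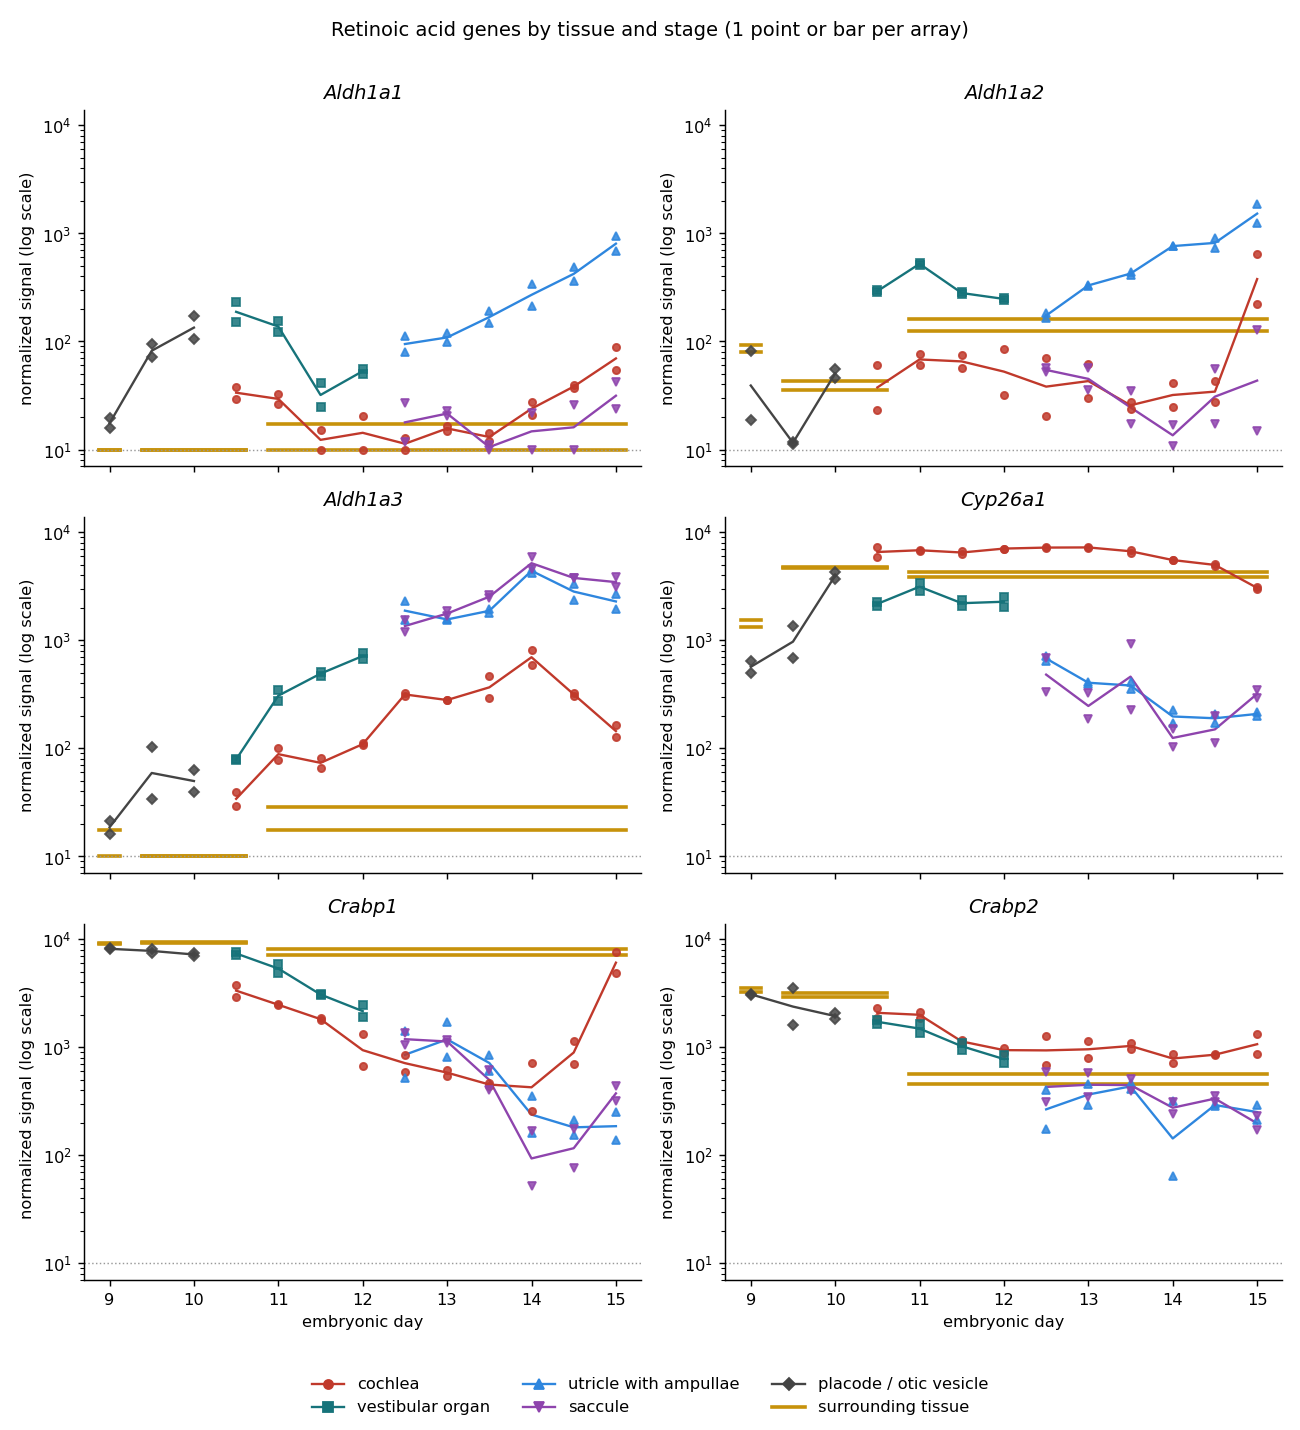
Normalized signal (log axis, with the floor of 10 dotted) of each gene against embryonic day. Points are single arrays and lines join the means of the 2 arrays on the log scale; horizontal bars are the 2 arrays of each surrounding tissue pool, drawn over the stages they cover. Cyp26a1 lies between 3019 and 7341 in the cochlea and between 104 and 932 in the utricle and saccule, while Aldh1a3 lies between 29.4 and 820.5 in the cochlea and between 1203 and 5883 in the utricle and saccule.

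The first comparisons ask how the young inner ear differed from the tissue around it. At E9 only Cyp26a1 was called, lower in the placode than in its surroundings. By E9.5 to E10.5 the synthesis genes Aldh1a1 and Aldh1a3 were higher in the inner ear, and between E9 and E10 Aldh1a1 and Cyp26a1 rose within the ear itself. Both binding protein genes had high signals on both sides at these stages.

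Cyp26a1 had signals of 644 and 503 in the placode, against 1538 and 1329 in its surroundings. The groups do not overlap, and the placode was lower by 2.47-fold on the log2(signal + 16) scale (log2 difference -1.31, SE 0.33, adjusted p = 0.0040). It was 1 of 6 genes called, where 5.93% of all genes tested were called. The call rests on the second placode array: without it the difference was -1.13 (adjusted p = 0.0562), and on the values as deposited it was -0.95 (adjusted p = 0.0178), below the size asked for.

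The other 5 genes did not pass at E9. Crabp1 stood at 8273 and 8064 in the placode and 9152 and 9103 in the surroundings, a difference of -0.16, SE 0.43 with a 95% interval of -1.03 to 0.71. Crabp2 stood at 3144 and 3053 in the placode and 3269 and 3518 in the surroundings (-0.13, SE 0.39; interval -0.92 to 0.66). Among the 32 groups the placode ranked 3 from the top for Crabp1 and 2 from the top for Crabp2. The 3 synthesis genes were below the array median on both placode arrays: Aldh1a1 at 19.5 and 15.7, Aldh1a2 at 18.9 and 81 and Aldh1a3 at 21.3 and 16.3. For Aldh1a2 the 2 placode arrays were further apart than the 2 of the surroundings (79.6 and 93.7), and the difference of -0.82, SE 0.47 had an interval of -1.77 to 0.14.

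Aldh1a1 had signals of 171 and 106 in the vesicle at E10, against 19.5 and 15.7 in the placode at E9. The stages do not overlap, and Aldh1a1 rose by 4.5-fold (2.17, SE 0.27, adjusted p = 1.29e-07). At E9.5 in between the vesicle had 93.8 and 71.9. Cyp26a1 had 3689 and 4262 at E10, against 644 and 503 at E9, with 1372 and 690.4 at E9.5. It rose by 6.8-fold (2.77, SE 0.33, adjusted p = 7.52e-08), so that the gene of the degrading enzyme and a synthesis gene rose together. These were 2 of the 6 genes, against 5.29% of all genes. Aldh1a3 reached 39.3 and 63.4 at E10, against 21.3 and 16.3 at E9, and missed the size asked for (0.93, SE 0.26, adjusted p = 0.0073). Crabp1 had 7485 and 6988 at E10, against 8273 and 8064 at E9 (-0.18, SE 0.43), and Crabp2 had 2082 and 1819.6, against 3144 and 3053 (-0.67, SE 0.39).

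From E9.5 to E10.5 Aldh1a1 was above the surroundings on each of the 8 inner ear arrays. Its lowest inner ear signals were those of the cochlea at E10.5, 29.6 and 38.1, and its highest those of the vestibular organ at E10.5, 151 and 234, while both arrays of the surroundings were at the floor of 10. The fitted difference, whose size depends on the pseudocount where one side is at the floor, was 2.14, SE 0.21, adjusted p = 1.62e-10. Aldh1a3, also at the floor on both arrays of the surroundings, had 104 and 33.9 in the vesicle at E9.5 and 78.3 and 79.9 in the vestibular organ at E10.5, a fitted difference of 1.44, SE 0.21, adjusted p = 5.41e-07. With a pseudocount of 64 it was 0.70 and was not called. Of the other 2 probe sets of Aldh1a3, 1427395_a_at was at the floor on every array of this comparison and 1417642_at gave 0.48, which was not called. These were 2 of 6 genes, against 8.40% of all genes. Cyp26a1 had 4634 and 4744 in the surroundings, above the vesicle at both stages and the vestibular organ but below the cochlea at E10.5 (7341 and 5895). Its difference over the 3 stages was -0.93, SE 0.26, adjusted p = 0.0056, short of the size asked for.

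From E11 to E15 the ear and its surroundings differed in 4 of the 6 genes, for the cochlea as for the vestibular tissues (the vestibular organ up to E12, then the mean of utricle with ampullae and saccule). Across all genes 14.6% were called for the cochlea and 16.0% for the vestibular tissues, and both comparisons use the same 2 arrays of surroundings. Crabp1 was lower in both and Aldh1a3 was higher in both. Cyp26a1 and Aldh1a1 were called for the vestibular tissues, and Aldh1a2 and Crabp2 for the cochlea.

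Crabp1 had 255 to 7641 (median 657) over the 12 cochlea arrays of E12.5 to E15, against 8132 and 7209 in the surroundings. The cochlea was lower by 7.02-fold (-2.81, SE 0.32, adjusted p = 1.72e-09), and only its higher E15 array lay within the range of the surroundings. In the vestibular tissues the difference was -3.19, SE 0.32, adjusted p = 4.98e-11, and no vestibular array from E11 on reached the surroundings. Aldh1a3 had 28.8 and 17.4 in the surroundings and was higher by 38.1-fold in the vestibular tissues (5.25, SE 0.19, adjusted p = 4.52e-24) and by 5.92-fold in the cochlea (2.56, SE 0.19, adjusted p = 2.49e-14). For the vestibular tissues all 3 probe sets of Aldh1a3 were called; for the cochlea 1427395_a_at gave 0.55 and was not.

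Cyp26a1 had 4321 and 3821 in the surroundings. The vestibular tissues were lower by 6.65-fold (-2.73, SE 0.24, adjusted p = 2.83e-12), whereas the difference for the cochlea was not called (0.55, SE 0.25, adjusted p = 0.0592). Aldh1a1 was higher in the vestibular tissues (1.60, SE 0.20, adjusted p = 7.28e-09), although the surroundings (17.1 and 10) and the saccule both had arrays at the floor. With a pseudocount of 64 this was 0.96 (adjusted p = 1.85e-08), short of the size asked for. Aldh1a2 had 125 and 162 in the surroundings and was lower in the cochlea (-1.10, SE 0.35, adjusted p = 0.0087), with the E15 arrays above the surroundings and all earlier ones below them; without the second array of the surroundings this was -0.93 (adjusted p = 0.1305). Crabp2 was just past the size asked for in the cochlea (1.00, SE 0.29, adjusted p = 0.0038). The call was lost for 8 of the 20 arrays when each was left out in turn. Without the second array of the surroundings it was 0.86 (adjusted p = 0.0860), and with a pseudocount of 64 it was 0.94 (adjusted p = 0.0018).

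Within the surroundings, 2 of the 6 genes were called between the late pool and E9, against 19.7% of all genes. Cyp26a1 had 4321 and 3821 at E11 to E15, against 1538 and 1329 at E9, and rose by 2.82-fold (SE 0.33 on the log2 scale, adjusted p = 2.80e-04); the pool of E9.5 to E10.5 already had 4634 and 4744. Crabp2 had 565 and 462 at E11 to E15, against 3269 and 3518 at E9, and fell (-2.69, SE 0.39, adjusted p = 3.85e-07). Crabp1 had 8132 and 7209 at E11 to E15 and 9152 and 9103 at E9 and was not called (-0.25, SE 0.43). The mix of tissues changed too: the summed mesenchyme signal was 14507 and 15595 in the late pool and 3758 and 4230 at E9. The time in dispase also differed between these stages. The part of either in these differences was not tested.

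**Figure D2:**
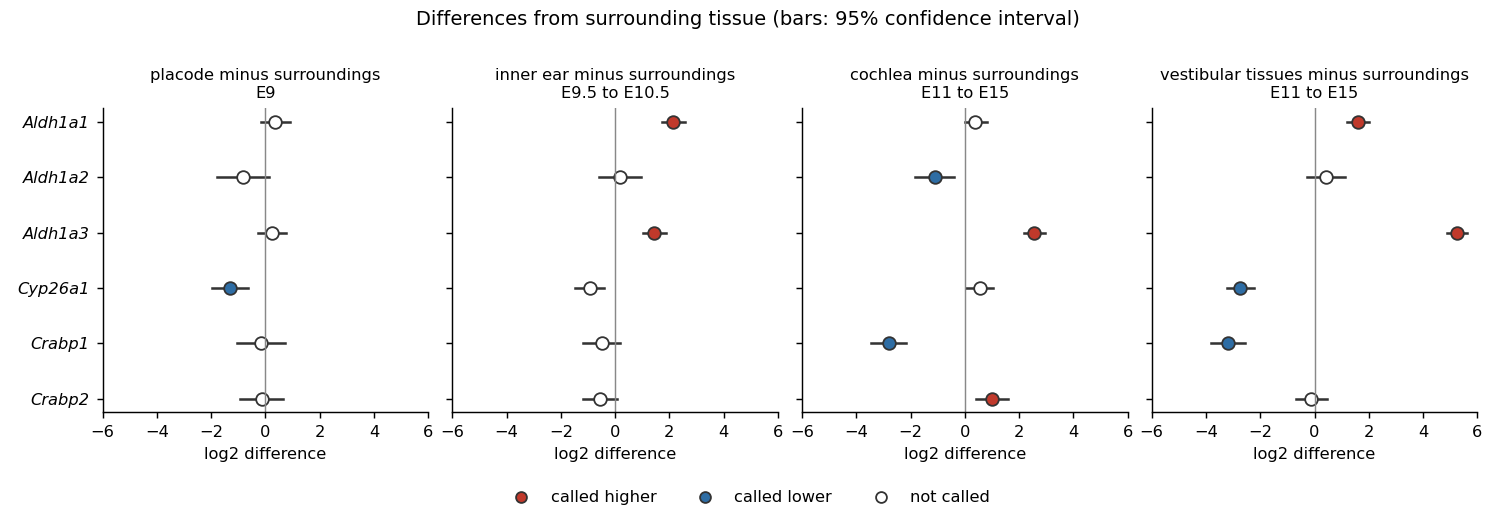
Log2 difference of each gene between inner ear tissue and its surroundings, in 4 comparisons. Points are the fitted differences, bars their 95% confidence intervals, red and blue fills mark genes called higher and lower in the ear, and open points were not called. Aldh1a3 lies at 0.23 for the placode of E9 and at 5.25 for the vestibular tissues of E11 to E15, and Cyp26a1 lies below 0 in 3 panels and at 0.55 for the cochlea.

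The next comparison sets the cochlea against the vestibular organ at E10.5 to E12, the stages at which the cochlear and the vestibular region were first taken apart. All 3 synthesis genes were lower in the cochlea, Cyp26a1 was higher there, and Crabp1 was lower. That is 5 of the 6 genes, against 1.41% of all genes tested; the median of the 6 differences was -1.24, and that of all genes -0.01.

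Aldh1a2 had signals of 61.1 and 23.1 at E10.5, 60.6 and 76.8 at E11, 75.3 and 56.8 at E11.5 and 86 and 32.2 at E12 in the cochlea. In the vestibular organ it had 297 and 288 at E10.5, 534 and 512 at E11, 286 and 276 at E11.5 and 251 and 244 at E12. All 8 cochlea arrays were below all 8 vestibular arrays and below the array median, and the cochlea was lower by 4.71-fold (-2.24, SE 0.24, adjusted p = 1.57e-09).

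Aldh1a1 had 29.6 and 38.1 at E10.5, 26.2 and 33 at E11, 15.1 and 10 at E11.5 and 20.4 and 10 at E12 in the cochlea, and 151 and 234 at E10.5, 154 and 123 at E11, 24.6 and 41.6 at E11.5 and 50.3 and 56.2 at E12 in the vestibular organ. The cochlea was below the vestibular organ at each of the 4 stages, though its E10.5 and E11 arrays overlapped with the vestibular arrays of E11.5. The difference was -1.43, SE 0.13, adjusted p = 5.80e-11. With a pseudocount of 64 it was -0.85 (adjusted p = 2.39e-10), short of the size asked for. Aldh1a3 had 29.4 and 39.7 at E10.5, 77.5 and 101 at E11, 65.9 and 82.1 at E11.5 and 107 and 112 at E12 in the cochlea, and 78.3 and 79.9 at E10.5, 347 and 273 at E11, 514 and 471 at E11.5 and 674 and 762 at E12 in the vestibular organ. No stage overlapped, and the cochlea was lower by 3.73-fold over the 4 stages (-1.90, SE 0.13, adjusted p = 8.26e-15); probe set 1417642_at gave -1.23 and was called, and 1427395_a_at gave -0.86, short of the size asked for.

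Cyp26a1, the degrading enzyme, had 7341 and 5895 at E10.5, 6898 and 6765 at E11, 6703 and 6317 at E11.5 and 7077 and 7077 at E12 in the cochlea. The vestibular organ had 2263 and 2095 at E10.5, 2881 and 3424 at E11, 2348 and 2079 at E11.5 and 2529 and 2055 at E12. The 8 cochlea arrays were all above the 8 vestibular arrays, and the cochlea was higher by 2.77-fold (1.47, SE 0.17, adjusted p = 6.96e-09). On the values as deposited, where the median difference of all genes was -0.28, it was 0.94 (adjusted p = 7.78e-06).

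Crabp1 had 3805 and 2945 at E10.5, 2456 and 2500.2 at E11, 1797 and 1851 at E11.5 and 1325 and 669 at E12 in the cochlea, and 7172 and 7618 at E10.5, 4841 and 5927 at E11, 3137 and 3032 at E11.5 and 2448 and 1909.6 at E12 in the vestibular organ. At each stage the cochlea was lower, and the difference was -1.05, SE 0.22, adjusted p = 3.26e-04. Without the second cochlea array of E12 it was -0.92 (adjusted p = 0.0025), below the size asked for. Crabp2 stood at 2334 and 1865 at E10.5, 2145 and 1866 at E11, 1169 and 1100.1 at E11.5 and 996 and 891 at E12 in the cochlea, and at 1803 and 1648 at E10.5, 1365 and 1628 at E11, 1108 and 947 at E11.5 and 851 and 711 at E12 in the vestibular organ, a difference that was not called (0.28, SE 0.20, adjusted p = 0.3288; interval -0.12 to 0.67).

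At E12.5 to E15 the cochlea was set against the utricle with ampullae and against the saccule, and the saccule against the utricle. Aldh1a3 was lower and Cyp26a1 higher in the cochlea than in either vestibular organ, at every stage and without overlap of arrays. Crabp1 and Crabp2 were also higher in the cochlea. Aldh1a1 and Aldh1a2 set the utricle with ampullae apart from both the cochlea and the saccule. The cochlea against the utricle with ampullae gave 6 of 6 genes called (3.07% of all genes), the cochlea against the saccule 4 of 6 (3.77%) and the saccule against the utricle with ampullae 2 of 6 (2.72%). The 3 comparisons share arrays in pairs and are not independent of each other.

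In the cochlea Cyp26a1 had 7209 and 7248 at E12.5, 7280.2 and 7228 at E13, 6489.9 and 6885 at E13.5, 5511 and 5574 at E14, 5063 and 4928 at E14.5 and 3019 and 3103 at E15. In the utricle with ampullae it had 651 and 710.3 at E12.5, 397 and 415 at E13, 353 and 414 at E13.5, 174 and 225 at E14, 209.5 and 173 at E14.5 and 199 and 219 at E15. In the saccule it had 693 and 336 at E12.5, 188 and 326 at E13, 932 and 229 at E13.5, 104 and 151 at E14, 200.1 and 113 at E14.5 and 294 and 348 at E15. The lowest of the 12 cochlea arrays, at E15, stood at 3019 and the highest of the 24 vestibular arrays at 932. The cochlea was higher by 17.2-fold against the utricle with ampullae (4.11, SE 0.14, adjusted p = 1.69e-25) and by 19.8-fold against the saccule (4.31, SE 0.14, adjusted p = 3.54e-26). The difference between the saccule and the utricle was not called (-0.20, SE 0.14; interval -0.47 to 0.07).

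Aldh1a3 ran the other way. It had 304 and 328 at E12.5, 281 and 281 at E13, 464 and 291 at E13.5, 821 and 595 at E14, 305 and 329 at E14.5 and 128 and 163 at E15 in the cochlea. It had 2295 and 1548 at E12.5, 1584 and 1541 at E13, 1806 and 1955 at E13.5, 4584 and 4240.4 at E14, 2389 and 3358 at E14.5 and 1969 and 2671 at E15 in the utricle with ampullae. It had 1534 and 1203 at E12.5, 1877 and 1672 at E13, 2624 and 2456 at E13.5, 5883 and 4567 at E14, 3811 and 3761 at E14.5 and 3885 and 3088 at E15 in the saccule. All 12 cochlea arrays were below the 24 vestibular arrays, and in all 3 organs the signal was highest at E14. The cochlea was lower by 6.97-fold against the utricle with ampullae (-2.80, SE 0.11, adjusted p = 1.01e-23) and by 8.18-fold against the saccule (-3.03, SE 0.11, adjusted p = 9.62e-25). The other 2 probe sets were called too, with -3.15 and -2.01 against the utricle and -3.47 and -2.34 against the saccule. Between the saccule and the utricle it was not called (0.23, SE 0.11, adjusted p = 0.0745).

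Aldh1a1 had 112 and 79.9 at E12.5, 120.1 and 99 at E13, 193 and 147 at E13.5, 215 and 339 at E14, 488 and 366 at E14.5 and 943 and 687 at E15 in the utricle with ampullae. Over the same stages the saccule had 10 to 42 (median 21.2) and the cochlea 10 to 89.1 (median 18.6). In 11 of 12 utricle arrays the signal was at or above the array median, in none of 12 saccule arrays and in 1 of 12 cochlea arrays. The saccule was lower than the utricle by 7.33-fold (-2.87, SE 0.11, adjusted p = 1.28e-23), and the cochlea by 6.19-fold (-2.63, SE 0.11, adjusted p = 2.14e-22). The difference between the cochlea and the saccule was not called (0.24, SE 0.11, adjusted p = 0.0571).

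Aldh1a2 had 165 and 183 at E12.5, 325 and 336 at E13, 439.6 and 412 at E13.5, 764 and 764 at E14, 915 and 731 at E14.5 and 1863 and 1250.3 at E15 in the utricle with ampullae, and 10.8 to 127 (median 35.3) in the saccule. It was lower in the saccule by 10.9-fold (-3.45, SE 0.19, adjusted p = 4.50e-18), with no overlap of arrays. The cochlea had 70.9 and 20.6 at E12.5, 61.9 and 29.9 at E13, 23.9 and 27.6 at E13.5, 25 and 40.9 at E14, 43.1 and 27.4 at E14.5 and 641 and 223 at E15, so that its first 10 arrays were below every utricle array and its 2 arrays of E15 were not. It was lower than the utricle by 7.73-fold (-2.95, SE 0.19, adjusted p = 4.94e-16), and its difference from the saccule was short of the size asked for (0.50, SE 0.19, adjusted p = 0.0287).

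Of the binding proteins, Crabp2 had 692 and 1269 at E12.5, 799 and 1152 at E13, 967 and 1097 at E13.5, 712 and 872 at E14, 869 and 841 at E14.5 and 1319 and 867 at E15 in the cochlea. The utricle with ampullae had 64.3 to 463 (median 296) over its 12 arrays and the saccule 170.4 to 595 (median 331). No cochlea array overlapped with either organ, and the cochlea was higher by 3.22-fold against the utricle (1.69, SE 0.16, adjusted p = 2.12e-11) and by 2.65-fold against the saccule (1.41, SE 0.16, adjusted p = 1.52e-09). Crabp1 had 595 and 856 at E12.5, 548 and 620.1 at E13, 472 and 434 at E13.5, 255 and 714 at E14, 1154 and 695 at E14.5 and 7641 and 4830.4 at E15 in the cochlea, against 138 to 1730.2 (median 435) in the utricle and 52.6 to 1362 (median 419) in the saccule. Over the 6 stages the cochlea was higher than the utricle (1.00, SE 0.18, adjusted p = 1.84e-05) and the saccule (1.15, SE 0.18, adjusted p = 7.95e-07), but the stages did not go the same way. At E12.5 and E13 both cochlea arrays were below both saccule arrays, and from E14 on they were above them. Without the E15 arrays of all 3 organs the differences were 0.22 (adjusted p = 0.4461) and 0.59 (adjusted p = 0.0102), and neither was called.

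**Figure D3:**
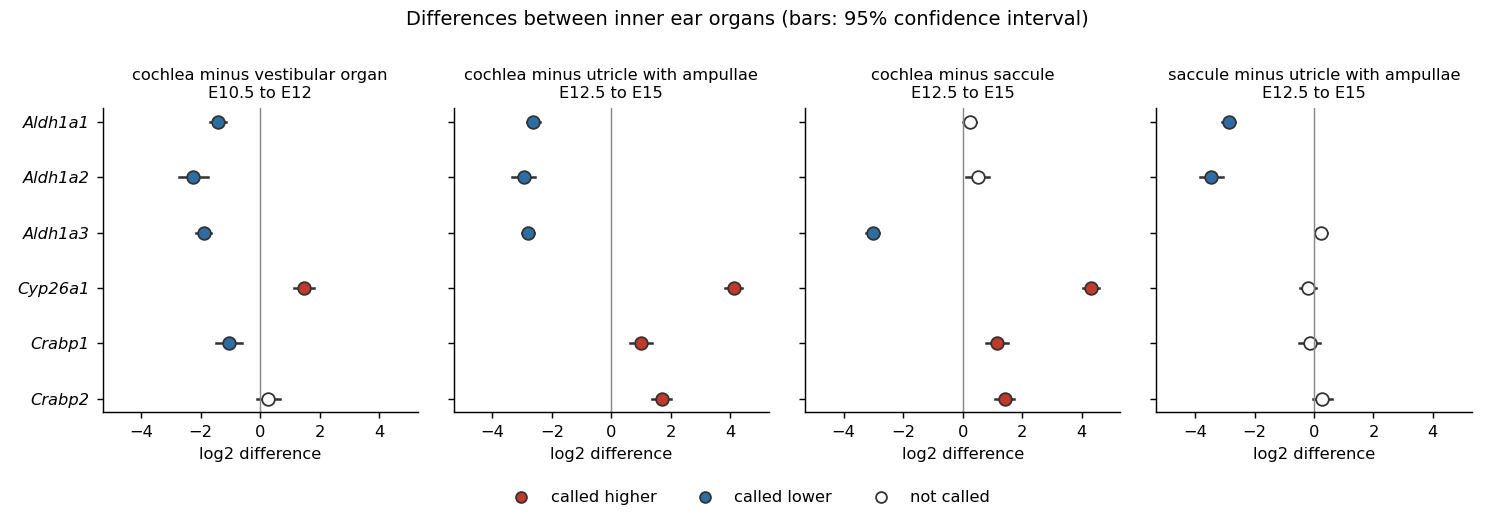
Log2 difference of each gene between organs, in 4 comparisons. Points are the fitted differences, bars their 95% confidence intervals, red and blue fills mark genes called higher and lower in the first-named organ, and open points were not called. Cyp26a1 lies at 1.47, 4.11 and 4.31 in the 3 cochlea panels and Aldh1a3 at -1.90, -2.80 and -3.03, while only Aldh1a1 and Aldh1a2 are called between the saccule and the utricle with ampullae.

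**Figure D4:**
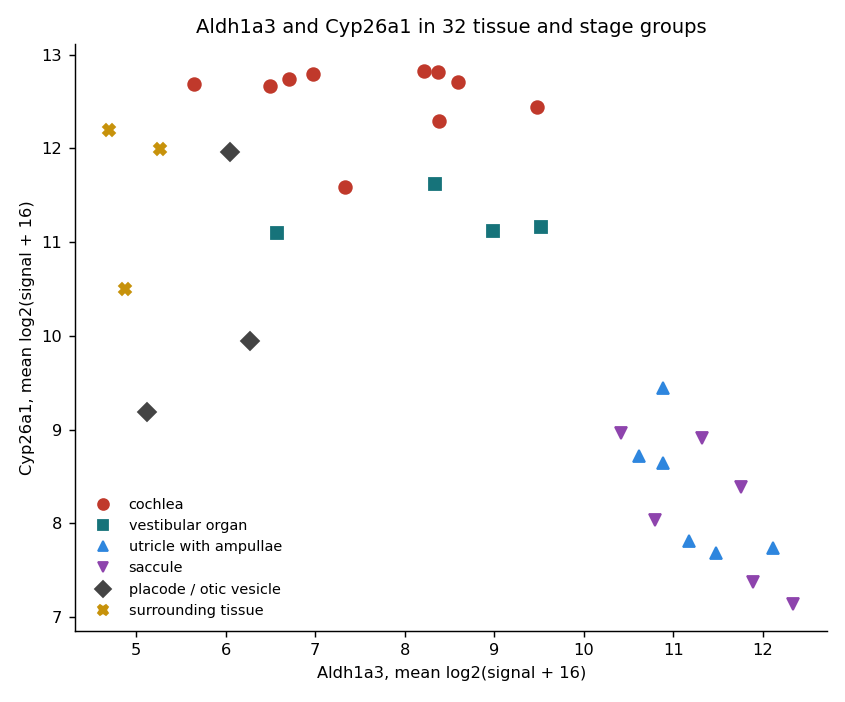
Mean log2(signal + 16) of Cyp26a1 against that of Aldh1a3 in the 32 tissue and stage groups, 2 arrays each, coloured by tissue. The utricle and saccule groups lie at high Aldh1a3 and low Cyp26a1, apart from all cochlea groups. The vestibular organ of E10.5 to E12 has Cyp26a1 signals of 2055 to 3424, above the utricle and saccule and overlapping the lowest of the cochlea (3019). Its Aldh1a3 signals, 78.3 to 762, lie within the cochlea range of 29.4 to 820.5. Pearson's r over the 32 group means is -0.72.

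Trends ask how each gene moved within an organ, as the change along a line fitted over its stages. At E10.5 to E12 in the vestibular organ, 4 of the 6 genes were called, against 4.02% of all genes. Aldh1a3 rose (2.85, SE 0.24, adjusted p = 2.37e-11) while Aldh1a1 fell (-1.91, SE 0.25, adjusted p = 6.52e-07), so genes of the same enzyme step went opposite ways in the same tissue. Crabp1 fell (-1.83, SE 0.41, adjusted p = 0.0015), and Crabp2 fell (-1.18, SE 0.37, adjusted p = 0.0240), which did not hold without the first E10.5 array (adjusted p = 0.1121), nor without any 1 of 3 others of the first and last stages. Aldh1a2 (-0.46, SE 0.45) and Cyp26a1 (-0.09, SE 0.31) were not called. Over the alternative settings tried, the Aldh1a3 trend was 1.18 at the smallest and the Aldh1a1 trend -1.15, and both stayed called. The time in dispase changed between E10.5 and E11, within this trend, and its part in these changes was not tested.

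In the utricle with ampullae from E12.5 to E15, 4 of 6 genes were called, against 7.53% of all genes. Aldh1a1 rose by 7.61-fold (2.93, SE 0.23, adjusted p = 2.84e-13) and Aldh1a2 by 7.06-fold (2.82, SE 0.40, adjusted p = 7.32e-07), with both E15 arrays of each above all earlier ones. Cyp26a1 fell (-1.74, SE 0.28, adjusted p = 6.66e-06), and Crabp1, at 516 and 1411 at E12.5, 812 and 1730.2 at E13, 854 and 601 at E13.5, 161 and 354 at E14, 213 and 155 at E14.5 and 251 and 138 at E15, fell by 7.13-fold (-2.83, SE 0.36, adjusted p = 1.06e-07). Synthesis genes thus rose in the organ in which the degradation gene and Crabp1 fell. Aldh1a3 was short of the size asked for (0.74, SE 0.22, adjusted p = 0.0082), and Crabp2 was not called (-0.40, SE 0.33). The probe sets of Aldh1a3 disagreed here, as 1417642_at gave 1.11 (adjusted p = 1.97e-04), which was called, and 1427395_a_at gave 0.00; without the E15 arrays the probe set used for the gene gave 1.06 (adjusted p = 7.32e-04) and was called. Markers of macrophages and endothelium were also highest at E15, where the summed macrophage signal was 1132 and 1631, against 741 or less at the earlier utricle stages and 5810 and 5885 in the surroundings of E11 to E15. The summed endothelium signal was 654 and 648 at E15, against 503 or less earlier and 1051 and 1029 in those surroundings. Over the utricle trend 1 of 5 macrophage genes and 1 of 6 endothelium genes rose. Their part in the rise of Aldh1a1 and Aldh1a2 was not tested; without the E15 arrays these rose by 2.07 (adjusted p = 2.77e-08) and 2.18 (adjusted p = 2.19e-04) on the log2 scale.

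In the saccule over the same stages 3 of 6 genes were called, against 7.08% of all genes. Aldh1a3 rose (1.57, SE 0.22, adjusted p = 3.61e-07), and probe set 1417642_at gave 2.72, also called, while 1427395_a_at gave 0.77 (adjusted p = 1.36e-04), short of the size asked for. Crabp1, at 1040.1 and 1362 at E12.5, 1176 and 1091 at E13, 623 and 400.1 at E13.5, 52.6 and 167 at E14, 177 and 76.6 at E14.5 and 438 and 321 at E15, fell (-2.81, SE 0.36, adjusted p = 9.62e-08), with its lowest signals at E14 and E14.5. Crabp2 fell (-1.03, SE 0.33, adjusted p = 0.0154), which missed the size or the threshold when any 1 of 4 arrays was left out; without the second E12.5 array it was -0.71 (adjusted p = 0.1788). Aldh1a1 (0.29, SE 0.23) and Aldh1a2 (-0.27, SE 0.40) were not called, and Cyp26a1 was short of the size asked for (-0.95, SE 0.28, adjusted p = 0.0087). Cyp26a1 was called when any 1 of 5 of the 12 saccule arrays was left out, with -1.31 (adjusted p = 0.0016) without the second E12.5 array, and with -1.63 (adjusted p = 9.68e-05) without both E15 arrays.

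In the cochlea from E10.5 to E15, 2 of 6 genes were called, against 14.9% of all genes: Aldh1a3 rose by 5.78-fold (2.53, SE 0.18, adjusted p = 6.37e-15; probe set 1417642_at 1.46, called, and 1427395_a_at 0.47, not called) and Crabp2 fell just past the size asked for (-1.05, SE 0.27, adjusted p = 0.0013). Without the first E10.5 array the Crabp2 trend was -0.97 (adjusted p = 0.0077). Several genes did not follow a straight line here. Aldh1a3 reached 821 and 595 at E14 and stood at 128 and 163 at E15, so that from E12.5 on the line gave -0.55 (adjusted p = 0.0613). Crabp1 fell within E10.5 to E12 (-1.76, adjusted p = 0.0013) and rose within E12.5 to E15 (2.44, adjusted p = 1.80e-06), with -0.88, SE 0.30, adjusted p = 0.0132 over all stages. Within E12.5 to E15 Aldh1a1 (1.58) and Aldh1a2 (1.94) also rose and Cyp26a1 fell (-1.15), each called. Without the E15 arrays, over a shorter span, none of these late changes was called. Over E12.5 to E14.5 Crabp1 gave 0.08 (adjusted p = 0.9211), Aldh1a2 -0.25 (adjusted p = 0.7589) and Cyp26a1 -0.58 (adjusted p = 0.2082). Aldh1a1 gave 0.92 (adjusted p = 0.0056), short only of the size asked for. Over E10.5 to E14.5 Crabp1 fell (-2.62, adjusted p = 9.68e-09). As deposited, the brightest signal of a cochlea array was 9660 to 10969 before E12.5 and 13291 to 14691 thereafter. The time in dispase changed between E10.5 and E11. The part of either in the trend over all stages was not tested.

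The trends of the organs were then compared with each other over E12.5 to E15. The cochlea differed from the utricle with ampullae in 3 of 6 genes (3.86% of all genes) and from the saccule in 4 of 6 (5.04%). Crabp1 set the cochlea apart from both, with differences between trends of 5.27, SE 0.52, adjusted p = 1.58e-09 for the utricle and of 5.24, SE 0.52, adjusted p = 8.79e-10 for the saccule. Aldh1a3 took the lower course in the cochlea (-1.29, SE 0.31, adjusted p = 0.0058 for the utricle; -2.12, SE 0.31, adjusted p = 4.34e-06 for the saccule). The Aldh1a1 trend of the cochlea lay below that of the utricle (-1.35, SE 0.32, adjusted p = 0.0051) and above that of the saccule (1.29, SE 0.32, adjusted p = 0.0051). With a pseudocount of 1 the first was -0.68 (adjusted p = 0.4155), and with a pseudocount of 64 the second was 0.64 (adjusted p = 0.0286). Aldh1a2 was called for the saccule (2.21, SE 0.57, adjusted p = 0.0070), but not with only these groups in the fit (adjusted p = 0.0624) or without the first saccule array of E15 (1.42, adjusted p = 0.0911); for the utricle it was not called (-0.88, SE 0.57, adjusted p = 0.3667). The 2 comparisons share the cochlea arrays.

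The cochlea values of E15 enter all of these contrasts, and some contrasts changed when E15 was left out. Crabp1 had 7641 and 4830.4 at E15, against 1154 and 695 at E14.5. Aldh1a2 had 641 and 223 at E15, against 43.1 and 27.4 at E14.5. At E15 Cyp26a1 had 3019 and 3103, against 5063 and 4928 at E14.5, and Aldh1a3 had 128 and 163 at E15, against 305 and 329 at E14.5. In these 4 genes the arrays of the stages do not overlap, whereas in Crabp2 they do. Over all genes tested, both E15 arrays were above both E14.5 arrays for 22.3% and below for 25.2%, so such a lack of overlap was common. This step was picked after its values were seen and was not tested. Without the E15 arrays the Aldh1a2 trend of the cochlea differed from that of the saccule by 0.60 (adjusted p = 0.8171) and that of Aldh1a3 from the utricle by -0.55 (adjusted p = 0.4638), with E15 left out of both organs compared. A trend without E15 spans fewer days, so a gene that moved at the same rate gives a smaller value. The Crabp1 contrasts were still called, at 2.69 with the utricle (adjusted p = 0.0024) and 3.97 with the saccule (adjusted p = 4.47e-06), as was the Aldh1a3 contrast with the saccule (-1.28, adjusted p = 0.02). Over these stages Crabp1 fell in the utricle (-2.60) and the saccule (-3.88) and gave the 0.08 named above in the cochlea. Over the shorter span the Aldh1a1 contrasts were -1.14 with the utricle (adjusted p = 0.0555) and 1.08 with the saccule (adjusted p = 0.0774). Both were past the size asked for but not the adjusted p. Aldh1a2 was called against the utricle without E15 (-2.42, adjusted p = 0.0108).

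The summed mesenchyme signal of the cochlea was highest at E15, at 5451 and 6266, against 4002 or less on the other cochlea arrays. Most of that sum was a single gene, Lum, which encodes the matrix proteoglycan lumican, with 3938 and 5227 at E15, against 2671 and 2864 at E14.5 and 2176 and 1587 in the surroundings of E11 to E15. The mesenchyme gene Twist1 stood at 13.4 and 10 in the E15 cochlea and Zeb2 at 15.1 and 10.3, against 398 to 471 for Twist1 and 295 to 344 for Zeb2 in the surroundings of E11 to E15. Col1a1, the type I collagen gene, stood at 85 and 11.4, against 2632 and 3472. The hindbrain sum was 398 and 760 in the E15 cochlea, against 10867 and 11625 in the surroundings. Of the 9 mesenchyme genes, 4 had both E15 arrays above both E14.5 arrays and 1 had both below. Besides Lum, Col1a2, another type I collagen gene, had 216 and 289 at E15, against 185 and 174 at E14.5, and Prrx1 had 99.6 and 98 at E15, against 82.2 and 61.6. The same held for 1 of 4 meninges genes, Ogn, with 194 and 198 at E15, against 47.3 and 55, and for 1 of 5 macrophage genes, Mrc1, with 526 and 320.5 at E15, against 165 and 55.5. These 2 counts are near the share of all genes tested, 22.3%. It also held for 2 of 5 cartilage, 2 of 8 neuron, 2 of 9 otic epithelium and 1 of 4 glia and neural crest genes. Among epidermis genes it held for 1 of 4, red blood cells 1 of 5, endothelium 1 of 6 and hindbrain 1 of 7. Summed, the macrophage signal was 957 and 623 at E15, against 526 and 380 at E14.5, and the meninges signal 348 and 283, against 282 and 144. The part of these cell types in the E15 values was not tested.

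**Figure D5:**
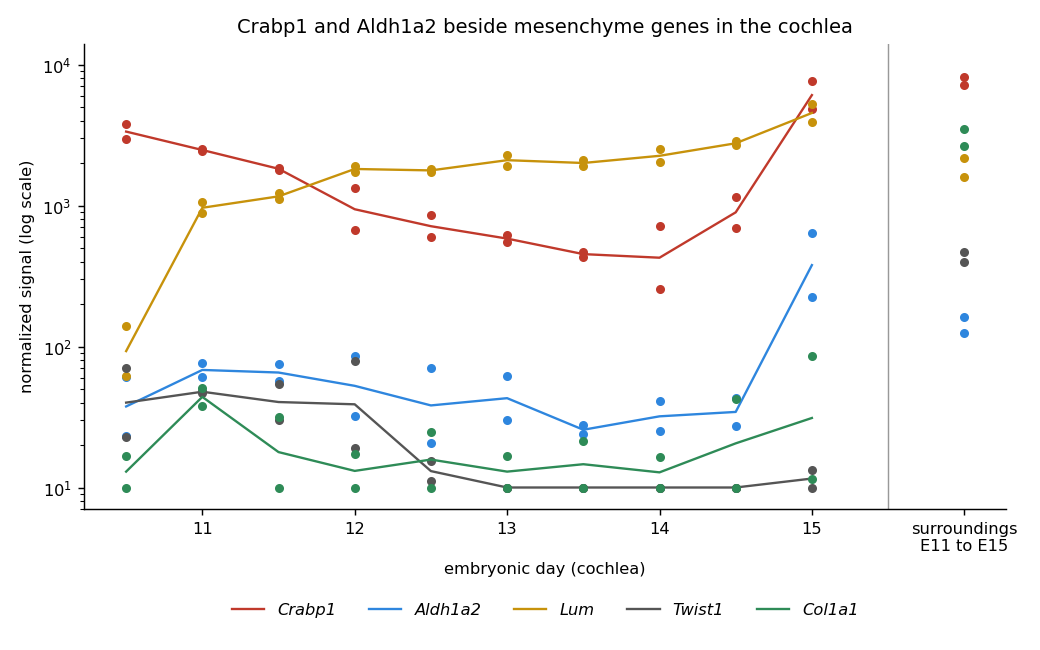
Normalized signal (log axis) of Crabp1 and Aldh1a2 in the cochlea by embryonic day, beside the mesenchyme genes Lum, Twist1 and Col1a1, with the 2 arrays of surrounding tissue of E11 to E15 at the right. Points are single arrays and lines join the means on the log scale. Crabp1 and Aldh1a2 are high at E15 (4830 to 7641 and 223 to 641). At that stage Lum is at its highest in the cochlea (3938 to 5227), Col1a1 is at 11.4 to 85 and Twist1 at 10 to 13.4.

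Other genes of the retinoic acid pathway were taken from a list of 52, of which 43 have a probe set and 27 passed the filter. Between the cochlea and the vestibular organ at E10.5 to E12, 1 was higher in the cochlea and 4 were lower, against 1.41% of all genes called. Against the utricle with ampullae 2 were higher and 3 lower (3.07% of all genes), and against the saccule 2 and 2 (3.77%). Between the saccule and the utricle 3 were higher in the saccule and 4 lower (2.72%). In the surroundings comparisons 0 were higher and 3 lower in the placode (5.93%), 2 and 6 in the inner ear of E9.5 to E10.5 (8.40%), 3 and 3 in the cochlea (14.6%), and 3 and 2 in the vestibular tissues (16.0%). Between organs, list medians lay between -0.14 and 0.13 and those of all genes between -0.01 and 0.01.

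Upstream of the 3 synthesis enzymes, Rdh10, which oxidises retinol to retinaldehyde, was lower in the cochlea than in each of the other organs. Its signal was 40.3 to 141 on 8 cochlea arrays, against 191 to 261 on 8 vestibular organ arrays (-1.22, SE 0.11). At E12.5 to E15 it was 51.7 to 144 in the cochlea, against 90.7 to 329 in the utricle (-1.09, SE 0.09) and 183 to 396 in the saccule (-1.48, SE 0.09). The transcripts of Rdh10 and Aldh1a3 were thus both lower in the cochlea. Rdh11, Rdh13 and Adh5, listed under the same role as Rdh10, were not called in these comparisons. Aldh1a7, a close relative of Aldh1a1 in rodents, was 10 to 22.3 in the saccule and 80.8 to 194 in the utricle (-2.29, SE 0.09), and 32.7 to 76.9 in the cochlea (-1.13, SE 0.09 against the utricle). Its probe set may pick up Aldh1a1 transcripts, which cannot be told from these values.

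Among the receptors, Rxrg was higher in the cochlea than in the vestibular organ (1.06, SE 0.08) and the utricle (1.84, SE 0.07), with 220.1 to 414 in the cochlea and 53 to 88.4 in the utricle at E12.5 to E15. Rarb, a receptor gene that is itself induced by retinoic acid in many cells, had 134 to 396 in the saccule, against 65.6 to 133 in the utricle with ampullae (1.28, SE 0.11). In the cochlea it was 20.1 to 63.8, lower than in the saccule (-2.25, SE 0.11). Rarb was also lower in the placode than in its surroundings at E9 (-1.36, SE 0.27).

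Of the genes known to respond to retinoic acid in other tissues, the homeobox gene Meis2 had 23.3 to 72.5 in the cochlea and 38.4 to 92.2 in the saccule, against 357 to 648 in the utricle (-3.09, SE 0.08 for the cochlea; -2.68, SE 0.08 for the saccule). The orphan receptor gene Nr2f1 had 1993 to 3172 in the cochlea and 1159 to 2585 in the saccule, against 42.6 to 747 in the utricle (3.39, SE 0.14; 2.83, SE 0.14). Meis1 was low in the saccule, 10 to 29.5, against 91.4 to 184 in the utricle (-2.38, SE 0.08). These responsive genes did not share a direction between the organs. Hoxb1, a hindbrain gene, was lower in the ear than in its surroundings at E9 (-2.57, SE 0.23) and at E9.5 to E10.5 (-4.22, SE 0.19). Fabp5, a lipid binding protein that can carry retinoic acid to another nuclear receptor, fell in the cochlea (-2.34, SE 0.15), the utricle (-1.69, SE 0.18) and the saccule (-2.04, SE 0.18). The saccule also had more hindbrain signal than the utricle with ampullae, as given above, and its part in these saccule differences was not tested.

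Ordered over all 32 groups, Aldh1a1 was highest in the utricle at E15 and E14.5, both groups clear of the next, and lowest, at the floor on both arrays, in the surroundings of E9 and of E9.5 to E10.5. Over its 32 groups in order of level, 28 of 31 pairs of neighbours had overlapping arrays. Aldh1a2 was highest in the utricle at E15, then at E14.5 and E14, followed by the vestibular organ at E11, and 20 of 31 neighbours overlapped. The 12 highest groups of Aldh1a3 were the 6 saccule and 6 utricle groups, from the saccule at E14 to the saccule at E12.5. For Cyp26a1 the 9 highest groups were the cochlea from E10.5 to E14.5, and the lowest was the saccule at E14. Crabp1 was highest in the surroundings at E9.5 to E10.5 and lowest in the saccule at E14, and Crabp2 was highest in the surroundings at E9 and lowest in the utricle at E14. Neighbours overlapped in 21 of 31 cases for Aldh1a3, 20 for Cyp26a1, 24 for Crabp1 and 25 for Crabp2.

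The genes most like each member were found by Pearson's r of mean log2 signals over the 32 groups, which share organs and neighbouring stages. They were Tle6 (0.852), Aldh1a7 (0.841), Cldn8 (0.836) for Aldh1a1, and Gm20559 (0.876), Timp3 (0.868), Tle6 (0.856) for Aldh1a2. For Aldh1a3 they were Noxo1 (0.930), Galnt2 (0.927), Nfe2 (0.927), and for Cyp26a1 Irx3 (0.911), Slc39a8 (0.888), Rai14 (0.866). For Crabp1 they were Utp4 (0.870), Iars (0.860), Lsm12 (0.852), and for Crabp2 Asf1a (0.901), Rrp12 (0.893), Gar1 (0.892). Tle6 stands in the lists of both Aldh1a1 and Aldh1a2. Among the members themselves r was 0.81 for Aldh1a1 with Aldh1a2, 0.80 for Crabp1 with Crabp2, -0.90 for Aldh1a3 with Crabp2 and -0.85 for Aldh1a3 with Crabp1. The 3 probe sets of Aldh1a3 followed each other at 0.91 to 0.98.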

How the data were processed

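The deposited values are linear intensities, 1 per probe set, made by the authors with MAS5 according to the submitters' processing notes; the sources used here give neither its version nor its scaling target. Of 22626 probe sets, 20380 have 1 gene symbol, 691 several and 1555 none. Arrays were quantile normalized, since their trimmed means spanned 1.581-fold, and log2(signal + 16) was used. Probe sets at or above the array median on at least 2 of 64 arrays were kept (15337), and the kept probe set with the highest mean stood for each of 9352 genes.

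limma 3.58.1 in R 4.3.3 was fitted to all arrays with a coefficient per group (32 residual degrees of freedom), and contrasts were adjusted by Benjamini-Hochberg over all genes. Stages weigh equally. A trend is the least-squares slope over group means times the days spanned, so over fewer days the same rate gives a smaller value. The steps were tested on simulated data. Across probe sets the arrays of a group correlated at 0.9473 to 0.9914, and 5.43% to 12.04% of an array's values lay at the floor.

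The genes, gene lists and comparisons were chosen with earlier results of these data known. Named here are the 6 genes, some of the called genes of the pathway list, the 3 genes most alike and some markers of other cell types. Not every called pathway gene is described: Ttr, a retinol transport gene called in several comparisons, is left out. Whether equal replicate numbers pair arrays is not stated in the sources used here; deviations of equally numbered arrays correlated above 0.1 in 19 of 23 pairs (-0.499 to 0.571), and in all 6 cochlea and utricle pairs. Promoters come from RefSeq (GRCm38.p6). Alternatives were pseudocounts of 1 and 64, no filter or a filter of 16 arrays, deposited values without normalization, each probe set on its own, array weights, only the compared groups, a replicate block, left-out stages and each array left out.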

Additional observations from a re-analysis of the deposited data

Results flagged for a closer look

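A total of 7 differences between organs in how a gene moved over E12.5 to E15 passed the test of the difference itself, in the limma model over all genes. The cochlea trend minus the trend of the utricle with ampullae was 5.27 for Crabp1 (SE 0.52, adjusted p = 1.58e-09), -1.35 for Aldh1a1 (SE 0.32, adjusted p = 0.0051) and -1.29 for Aldh1a3 (SE 0.31, adjusted p = 0.0058), on the log2 scale. The cochlea trend minus the saccule trend was 5.24 for Crabp1 (SE 0.52, adjusted p = 8.79e-10), -2.12 for Aldh1a3 (SE 0.31, adjusted p = 4.34e-06), 2.21 for Aldh1a2 (SE 0.57, adjusted p = 0.0070) and 1.29 for Aldh1a1 (SE 0.32, adjusted p = 0.0051). The cochlea arrays are shared by both sets of differences. With E15 left out of the organs compared, a trend spans fewer days, and the same rate gives a smaller value. The Crabp1 differences were then 2.69 from the utricle (adjusted p = 0.0024) and 3.97 from the saccule (adjusted p = 4.47e-06) and the Aldh1a3 difference from the saccule -1.28 (adjusted p = 0.02), all called, and the other 4 were not. The rise of Crabp1 in the cochlea itself rests on E15: over E12.5 to E14.5 its line gave 0.08 (adjusted p = 0.9211).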

How the results depend on the processing

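With 2 arrays per group a single stage is weakly measured, and low signals near the floor depend on the pseudocount. Of 1038 changes of single genes under alternatives other than leaving out an array, 976 kept their direction and their side of the threshold, 33 were no longer called, 14 were newly called and 15 turned direction; with an array left out, 1517 of 1572 kept both. With a replicate block, 112 of 112 results kept both, with Cyp26a1 in the cochlea against the utricle at 4.11 (adjusted p = 2.40e-20). The alternatives without the E15 arrays were chosen after the values were seen. The cause was not tested for any of the changes below.

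The number of the 6 genes called was 1 with a pseudocount of 64 for the inner ear against its surroundings at E9.5 to E10.5 (2 as reported, Aldh1a3 at 0.70) and 2 for the cochlea against its surroundings (4 as reported). It was 0 for the placode on the values as deposited (1 as reported). With an array left out it ranged over 0 to 1 for the placode and 2 to 4 for the cochlea against its surroundings. For the cochlea trend (2 as reported) it was 1 over E11 to E15, 4 over E12.5 to E15 and 0 over E12.5 to E14.5 (limma, with Aldh1a1 at 0.92, adjusted p = 0.0056). With E15 left out of both organs compared, it was 2 for the cochlea trend minus the saccule trend (4 as reported).

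Directions that turned were mostly of uncalled genes. On the values as deposited Crabp2 was 0.21 in the vestibular tissues against the surroundings and -0.05 in the cochlea against the vestibular organ. Without the E14 arrays it was 0.02 in the vestibular tissues against the surroundings, and Crabp1 was 0.06 in the saccule against the utricle. Cyp26a1 was 0.06 in the vestibular organ trend without the E11 arrays. In the cochlea trend over E10.5 to E12, Aldh1a1 was -0.83 and Cyp26a1 0.07; over E12.5 to E15, Aldh1a3 was -0.55, Crabp1 2.44 and Crabp2 0.01. Over E12.5 to E14.5, Aldh1a2 was -0.25 and Crabp1 0.08 in the cochlea trend, and Aldh1a1 was -0.16 in the saccule trend. Without the cochlea arrays of E15, Aldh1a2 was -0.67 in the cochlea trend. With E15 left out of both organs compared, Cyp26a1 was 1.05 in the cochlea trend minus the saccule trend. With an array left out, Aldh1a2 ranged from -0.54 to 0.93 in the vesicle at E10 against the placode and from -1.06 to 0.52 in the saccule trend, Cyp26a1 from -0.57 to 0.16 in the cochlea trend minus the saccule trend and from -0.23 to 0.04 in the vestibular organ trend, and Crabp2 from -0.26 to 0.02 in the vestibular tissues against the surroundings.

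Without normalization the median over all genes shifted to 0.32 for the placode against its surroundings, 0.33 for the inner ear at E9.5 to E10.5, 0.19 for the vestibular tissues, -0.28 for the cochlea against the vestibular organ, 0.24 for the cochlea trend and 0.12 for the vestibular organ trend. The share of called genes that were higher became 87.4% (45.6% as reported), 74.3% (44.3%), 72.6% (55.2%), 11% (37.9%), 66.7% (53.9%) and 70.8% (55.6%) in that order. For the placode 987 genes were then called (555 as reported), and for the cochlea against the vestibular organ 218 (132 as reported). The count of all genes called moved by over 1.5 times in 13 of 16 comparisons with a pseudocount of 64, to 0.48 to 0.66 of that reported, and in 8 with every probe set tested alone, to at most 1.59 times. With E15 left out of both organs compared, and so over fewer days, the count was 159 for the cochlea trend minus the utricle trend (361 as reported). For the cochlea trend minus the saccule trend it was 175 (471 as reported). With 1 array left out, the cochlea trend minus the utricle trend had 236 (without the first utricle array of E12.5), 586 (without the first cochlea array of E15) or 643 (without the second utricle array of E12.5). The cochlea trend (1398 as reported) had 673 over E10.5 to E12, 589 over E12.5 to E15 and 275 over E12.5 to E14.5, the saccule trend (662 as reported) 380 over E12.5 to E14.5, and the vestibular organ trend (376 as reported) 238 over E11 to E12. With a pseudocount of 1 the cochlea against the vestibular organ had 202 (132 as reported).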
